A study of Arabidopsis thaliana with 4 samples.

Results

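The chloroplast NDH complex is an NADH dehydrogenase-like complex of the thylakoid membrane, and most of its core subunits are encoded in the chloroplast genome. The genes described here are *ndhA*, *ndhC*, *ndhD*, *ndhE*, *ndhF*, *ndhG*, *ndhH*, *ndhI*, *ndhJ* and *ndhK*, chosen by symbol from the probe sets that the platform's annotation gives to a single chloroplast-encoded gene. All 10 had a probe set with values, among 69 chloroplast-encoded genes and 21754 genes or probe sets tested. None of the 10 probe sets belongs to the classes that can detect several transcripts. The probe set of *ndhB* lists more than a single gene and was not used here. The study hybridised Affymetrix ATH1 arrays with RNA from *Arabidopsis* seedlings, 2 arrays of *aln-1* and 2 of the wild type (WT), both in the Col-0 background. *aln-1* is a T-DNA insertion line of *ALLANTOINASE* (*ALN*), the enzyme that opens the ring of allantoin in purine breakdown, and it is a single mutant allele. All seedlings were harvested 2 weeks after germination on sterile half-strength MS medium with 1% sucrose and a day of 16 h light and 8 h dark, and only the aerial parts were taken. Neither group received a treatment.

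In chloroplasts the complex takes electrons from reduced ferredoxin, passes them to plastoquinone and pumps protons, and it works together with photosystem I in cyclic electron flow. Its peripheral arm, in the stroma, holds NdhH, NdhI, NdhJ and NdhK beside subunits encoded in the nucleus. The membrane arm holds NdhA to NdhG, and some of these, NdhD and NdhF included, resemble sodium-proton antiporters. The genes lie in a cluster of *ndhC*, *ndhK* and *ndhJ*, in the separate gene *ndhF*, and in a long cluster from *ndhH* over *ndhA*, *ndhI*, *ndhG*, *ndhE* and *psaC* to *ndhD*, whose members are read into shared transcripts that are later cut. Several of these transcripts are also edited by pentatricopeptide repeat proteins made in the nucleus.

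The deposited values are scores on which neither the methods nor the table names a logarithm base. All differences are therefore *aln-1* minus WT in score units, and no fold changes are given. For orientation, the SD of the scores over all features of an array was 0.620 to 0.657, the medians were 0.155 to 0.174 and the scores ran from -1.01 to 3.08. With 4 arrays in all, every value has limited precision. The labels do not say whether replicates came from separate cultures, so the p-values cover only array-to-array spread, part or all of which may be technical. *ALN* itself scored -0.0466 and 0.00508 on the *aln-1* arrays against 0.367 and 0.442 on the WT arrays, a difference of -0.425 (standard error 0.0505, adjusted p = 0.0116 from limma), while its adjusted p was above 0.05 when either WT array was left out. Of 12 leaf markers, 3 had a named probe set. The leaf markers were among the highest scores, summing to 7.76 and 7.41 on the *aln-1* arrays against 8.28 and 8.08 on the WT arrays. Of 8 root markers, also 3 were measured, summing to 2.61 and 2.93 for *aln-1* against 2.19 and 2.29 for WT. None of these markers is at the lowest score of the arrays, and the root-abundant β-glucosidase gene *PYK10* had scores between 2.65 and 2.73 in these aerial parts. Both sums moved with the genotype, and their part in the results below was not tested.

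A single member passed the test. *ndhD* fell in *aln-1*, and the other 9 members did not reach an adjusted p under 0.05 in limma. The background in the whole table was 8.17% of features lower and 7.42% higher, so 1 of 10 members is close to the share among all features. At an unadjusted p under 0.05 in limma, 4 members were lower and 0 higher. At that threshold 4521 of all 21754 features were lower and 3153 higher. The median difference over the members was -0.111, against -0.0320 over all features tested, and 8 of the 10 differences were negative, as were those of 13065 of all 21754 features. On 5 members both *aln-1* arrays lay below both WT arrays, and on 1, *ndhK*, above them, where 41.4% and 25.4% of all features did the same. In the membrane arm all 6 measured genes had a negative difference on the deposited scores, with the sign of *ndhF* turned by each other scaling and those of *ndhC* and *ndhG* by a scaling to other chloroplast genes. The 4 genes of the peripheral arm were split, with *ndhJ* and *ndhK* positive and *ndhH* and *ndhI* negative, of which *ndhI* turned under that same scaling. With 2 arrays against 2, an exact permutation test of a single gene cannot give a two-sided p below 0.333, so the tests here rest on the fit across all features.

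RNA was labelled with a kit that primes at poly(A) tails. Chloroplast messages mostly lack stable tails, and short tails mark them for decay, so the amount of a chloroplast transcript and its share with a tail or an A-rich priming site cannot be told apart on these arrays. The same holds for fewer green cells and less chloroplast RNA in each cell.

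**Figure D1:**
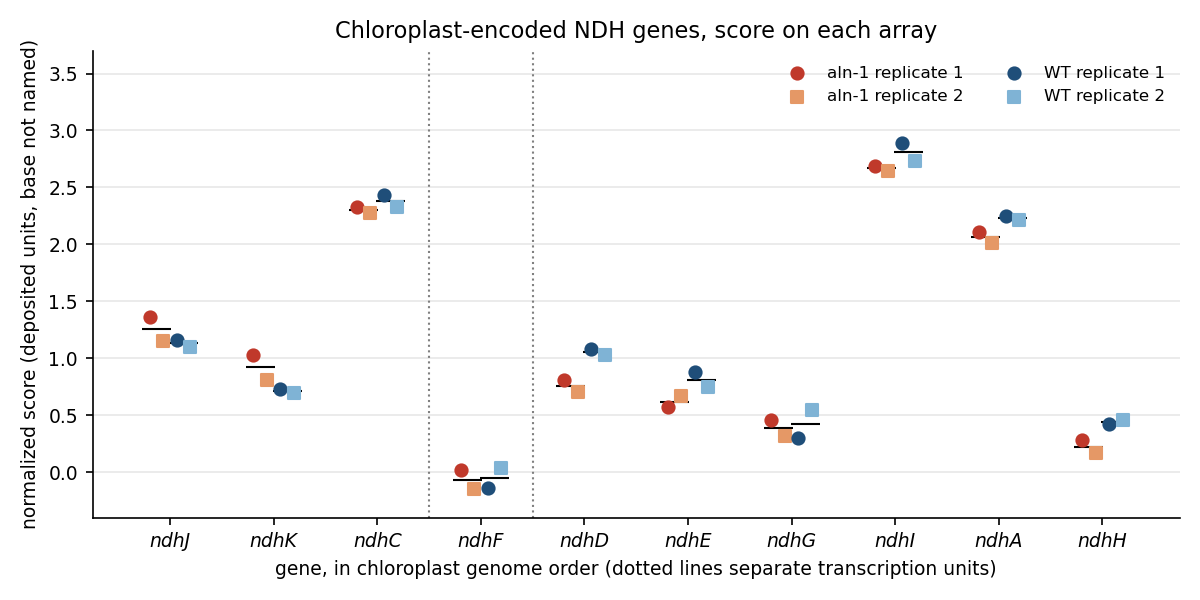
Normalized score (vertical axis, deposited units) of each member on each of the 4 arrays, in genome order, with short black lines at the genotype means; dotted lines separate the transcription units. The arrays separate without overlap on *ndhK* (*aln-1* above) and on *ndhD*, *ndhE*, *ndhI*, *ndhA* and *ndhH* (*aln-1* below), and they overlap on the other 4 genes.

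In the cluster of *ndhJ*, *ndhK* and *ndhC*, no gene passed the test. *ndhJ*, which encodes a subunit of the peripheral arm, had scores of 1.37 and 1.15 in *aln-1* against 1.16 and 1.0999 in WT. The genotypes overlapped, since *aln-1* replicate 2 lay just under WT replicate 1, and the difference was 0.128 (standard error 0.0817, adjusted p = 0.321). *ndhK*, whose product carries an iron-sulfur cluster of the peripheral arm, had scores of 1.03 and 0.807 in *aln-1* against 0.728 and 0.699 in WT. Both *aln-1* arrays were above both WT arrays, but they were also further apart, with an SD of 0.160 against 0.0202 in WT. The difference of *ndhK* was 0.207, with a 95% interval from -0.00405 to 0.418 and an adjusted p of 0.147. *ndhC*, which encodes a small membrane subunit, had scores of 2.33 and 2.28 in *aln-1* against 2.43 and 2.32 in WT, so *aln-1* replicate 1 and WT replicate 2 were nearly level. Its difference was -0.0786 (standard error 0.0561, adjusted p = 0.371). At least 99.2% of all features scored lower than *ndhC* on every array, so it sits near the upper end of the scale. The protein-coding genes next to this cluster with a probe set, *rps4* for a ribosomal protein and *atpE* for a subunit of ATP synthase, had differences of -0.232 (adjusted p = 0.0906) and -0.123 (adjusted p = 0.180).

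*ndhF*, the antiporter-like subunit at the far end of the membrane arm, showed the smallest difference of the members. Its scores were 0.0179 and -0.149 in *aln-1* against -0.140 and 0.0412 in WT, so each genotype had a high and a low array at nearly the same levels. The difference was -0.0164 with a 95% interval from -0.240 to 0.208 (adjusted p = 0.912), an interval that also holds the differences of all other members except *ndhD*. The scores of *ndhF* were low for this set, with 29.6% to 42.6% of all features below it. Its neighbour *rpl32*, which encodes a ribosomal protein, had a difference of -0.121 (adjusted p = 0.225).

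All 6 measured members of the long cluster had a negative difference, with a median of -0.182, and 1 of them was called. Over all features, 8.17% were called lower and 13065 of 21754 differences were negative. Among the 59 other chloroplast-encoded genes 52 differences were negative, with a median of -0.168. *ndhH* stands at the promoter side of the cluster and encodes a subunit of the peripheral arm close to the plastoquinone site. Its scores were 0.285 and 0.165 in *aln-1* against 0.420 and 0.457 in WT, with no overlap, and the difference of -0.214 (standard error 0.0573) had an adjusted p of 0.0652. *ndhA*, the membrane subunit that joins both arms, had scores of 2.11 and 2.01 in *aln-1* against 2.25 and 2.22 in WT. Its *aln-1* arrays were again both lower, and the difference of -0.169 (standard error 0.0522) had an adjusted p of 0.0874. *ndhI* encodes a ferredoxin-like subunit with iron-sulfur clusters. It had scores of 2.69 and 2.65 in *aln-1* against 2.89 and 2.73 in WT. Those arrays did not overlap either, although WT replicate 2 was closer to *aln-1* replicate 1 than to WT replicate 1. At least 99.857% of all features scored below *ndhI* on each array, and its difference was -0.143 (standard error 0.0663, adjusted p = 0.196). With quantile normalization the difference of *ndhI* was -0.0614 (adjusted p = 0.363 from limma).

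*ndhG*, which encodes a membrane subunit, was the exception in its spread. Its scores were 0.462 and 0.319 in *aln-1* against 0.301 and 0.550 in WT, so the WT arrays enclosed those of *aln-1*. The difference was -0.0345 with the widest standard error of the members, 0.0992 (adjusted p = 0.832). *ndhE*, the smallest membrane subunit, had scores of 0.572 and 0.665 in *aln-1* against 0.877 and 0.751 in WT. It was the only member on which *aln-1* replicate 1 was below *aln-1* replicate 2. Its difference of -0.195 (standard error 0.0642) had an adjusted p of 0.0998.

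*ndhD*, the last gene of the cluster and an antiporter-like subunit, was the member that fell. Its scores were 0.812 and 0.702 in *aln-1* against 1.08 and 1.03 in WT, with a gap of its own between the genotypes and little spread within them. The means were 0.757 ± 0.0778 (SD, n = 2) and 1.06 ± 0.0401 (SD, n = 2), and the difference of -0.299 had a 95% interval from -0.444 to -0.154 (adjusted p = 0.0307 from limma). Of all features tested, 86.9% had a smaller absolute difference. The call was lost without *aln-1* replicate 2 (difference -0.244, adjusted p = 0.0760). It was also lost without the first WT array (-0.271, adjusted p = 0.187) and without the second (-0.327, adjusted p = 0.117). Without *aln-1* replicate 1 it stayed at -0.354 with an adjusted p of 0.0215. *psaC* lies in the same cluster, between *ndhE* and *ndhD*, and encodes the iron-sulfur subunit of photosystem I. Its difference was larger in size, -0.371, but the WT scores of 1.03 and 0.616 were far apart and the adjusted p was 0.128. The genes on the outer sides of the cluster were *ccsA*, for cytochrome c maturation, with a difference of -0.230 (adjusted p = 0.0464), and the ribosomal protein gene *rps15*, with a difference of -0.344 and an adjusted p of 0.0903. The call of *ccsA* was lost with a replicate block (adjusted p = 0.0542), with centring on array medians (0.0565) or on the other chloroplast genes (0.347), and with any 1 array left out (0.0867 to 0.230).

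The members were next set beside the 59 other chloroplast-encoded genes. Among these, 13 fell and 0 rose at an adjusted p under 0.05 in limma, the median difference was -0.168, and 52 of the 59 differences were negative. The background was 8.17% of features lower and 7.42% higher. Without WT replicate 1 or 2, the median difference of these 59 genes was -0.136 or -0.214. Without *aln-1* replicate 1 or 2, it was -0.204 or -0.134. Leaving out WT replicate 1, WT replicate 2 or *aln-1* replicate 2 lowered the number of calls, among these genes as over all features. On 42 of the 59 both *aln-1* arrays were below both WT arrays, and on 4 above, against 41.4% and 25.4% of all features. By group, 6 of 33 genes for photosystems, cytochrome complex, ATP synthase and Rubisco fell, with a median difference of -0.158, and 5 of 20 genes for ribosomal proteins, RNA polymerase and the maturase fell, with a median of -0.212. On the deposited scores, the differences of *ndhI*, *ndhA*, *ndhE* and *ndhH* were close to the median of the 59 genes. That of *ndhD* lay below this median, and those of *ndhJ*, *ndhK*, *ndhF*, *ndhG* and *ndhC* lay above it. No test of the members against the other genes was made.

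**Figure D2:**
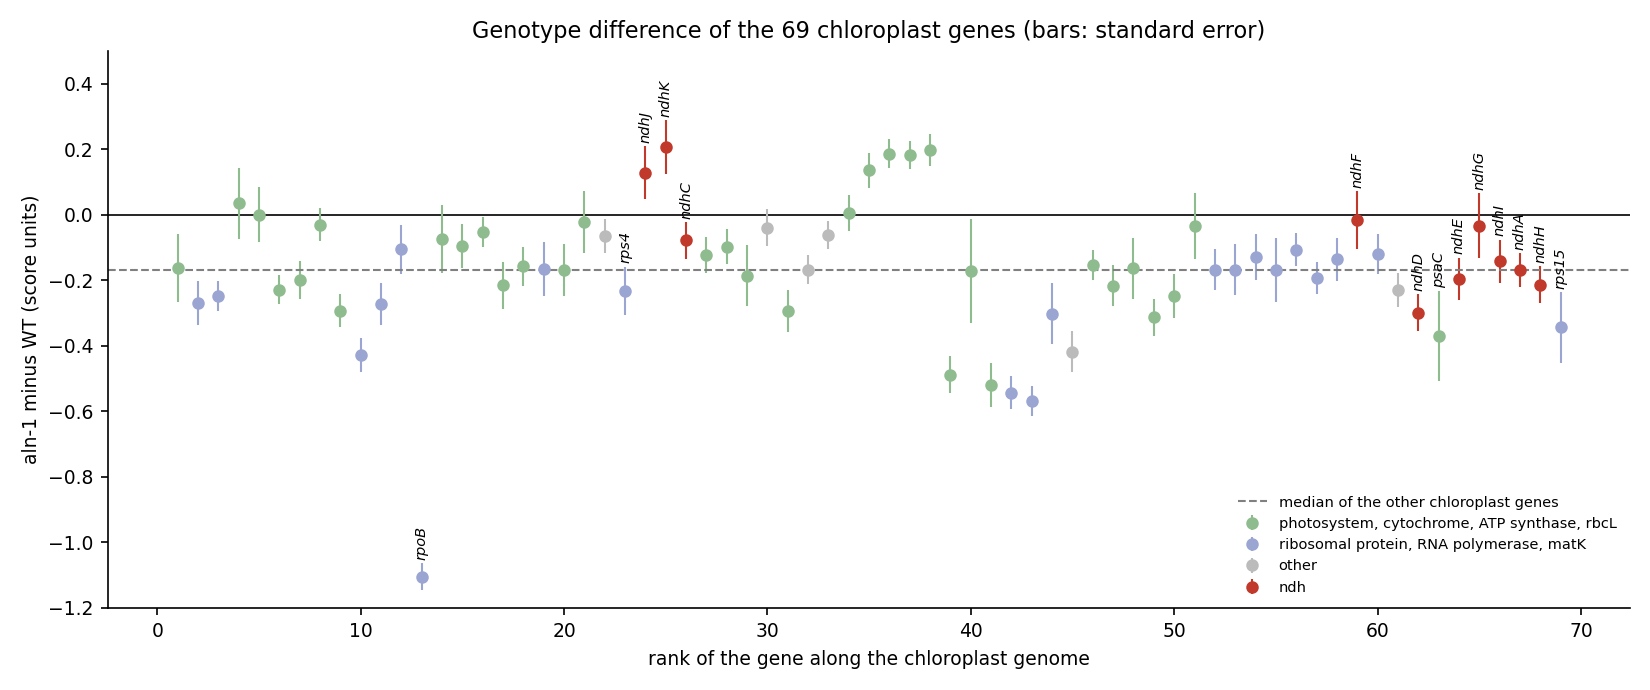
Difference between *aln-1* and WT (score units, bars show the standard error from limma) for the 69 chloroplast-encoded genes with a probe set, ranked by position along the genome; the dashed line is the median of the 59 genes that are not members, -0.168. The 10 *ndh* genes are in red, with *ndhJ* and *ndhK* above 0 and most of the long cluster, on the right, near the dashed line; *rpoB* has the lowest value, -1.105.

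Scaling to the other chloroplast genes changed which members were called. When each array was centred on the median of those 59 genes, *ndhJ* and *ndhK* were higher in *aln-1*, with differences of 0.275 (adjusted p = 0.0341) and 0.354 (adjusted p = 0.0169), and *ndhD* was no longer called, at -0.152 (adjusted p = 0.0970). *ndhE*, *ndhA* and *ndhH* then lay between -0.0672 and -0.0222, and *ndhC*, *ndhF*, *ndhG* and *ndhI* became positive. The median over the members was 0.0362. This centring moves the median of all features from -0.0320 to 0.115, and 20.4% of all features are then called higher and 3.22% lower, so 2 of 10 members is again the share in the background. Centring on the median of all features kept *ndhD* as the sole call, with a difference of -0.281 and a background of 8.45% higher and 6.92% lower. Quantile normalization did so too, with -0.316 and a background of 8.58% and 8.28%.

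**Figure D3:**
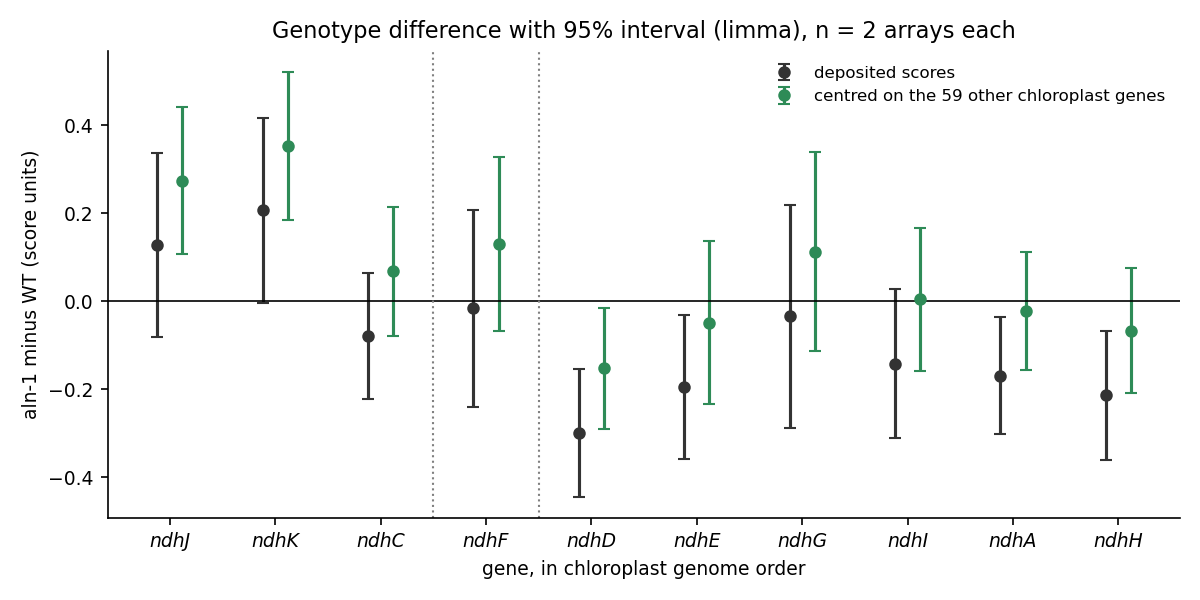
Difference between *aln-1* and WT for each member (score units, points) with its 95% interval from limma, on the deposited scores (black) and after centring each array on the 59 other chloroplast genes (green). In black only *ndhD* passes the adjusted p, and in green only *ndhJ* and *ndhK* do; every green point lies above its black one.

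Differences between members on the same array do not depend on such centring. These contrasts were picked after the values had been seen and carry no test. The mean score of *ndhJ*, *ndhK* and *ndhC* minus the mean score of the 6 genes of the long cluster was 0.419 and 0.326 on the *aln-1* arrays and 0.138 and 0.0851 on the WT arrays. The mean of the short cluster therefore stood higher relative to that of the long cluster on both *aln-1* arrays, by 0.261. That mean joins the positive differences of *ndhJ* (0.128) and *ndhK* (0.207) with the negative difference of *ndhC* (-0.0786). Within the short cluster, *ndhK* minus *ndhC* was -1.29 and -1.47 in *aln-1* against -1.71 and -1.63 in WT, and *ndhJ* minus *ndhC* was -0.959 and -1.13 against -1.27 and -1.22. Both contrasts were higher in *aln-1* on each array, the former by 0.285 and the latter by 0.206. Within the long cluster, *ndhD* minus *ndhH*, its outer members, was 0.527 and 0.537 in *aln-1* against 0.664 and 0.571 in WT. The spread of this contrast between the WT arrays, an SD of 0.0662, was close to its genotype difference of -0.0851. In the same cluster, *ndhD* minus *ndhG* was 0.350 and 0.383 in *aln-1* against 0.784 and 0.478 in WT. Its genotype difference was -0.265, with an SD of 0.217 between the WT arrays.

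Replicates also differed in a shared direction. *aln-1* replicate 1 was above *aln-1* replicate 2 on 9 of the 10 members, by a median of 0.115, and on 45 of the 59 other chloroplast genes, by a median of 0.0659. Over all features *aln-1* replicate 1 was above on 10678 of 21754, and the median was -0.00181. WT replicate 1 was above WT replicate 2 on 7 members, by a median of 0.0426, and on 42 of the 59 other genes, by a median of 0.0623. Over all features it was above on 12380 of 21754, by a median of 0.0129. With 10 members, 7 is not far from that share. The level of chloroplast transcripts relative to all others thus varied between arrays of the same genotype, and its part in the differences above was not tested. Leaving out *aln-1* replicate 1 brought *ndhJ* to 0.0199 and *ndhK* to 0.0939, and leaving out *aln-1* replicate 2 raised them to 0.236 and 0.320, the latter with an adjusted p of 0.0414. *ndhH* passed only without *aln-1* replicate 1 (-0.274, adjusted p = 0.0340). The sign of *ndhF* and of *ndhG* depended on the array left out, between -0.107 and 0.0741 for *ndhF* and between -0.159 and 0.0903 for *ndhG*. The other 8 members kept their sign in all 4 cases.

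**Figure D4:**
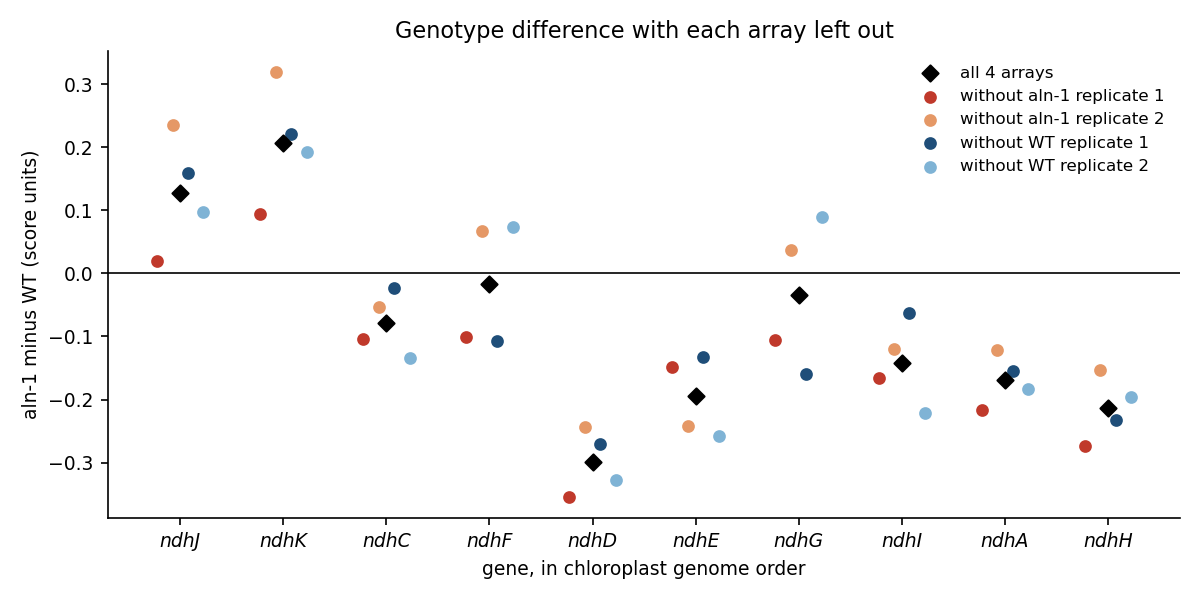
Difference between *aln-1* and WT for each member (score units) with all 4 arrays (diamonds) and with each array left out in turn (coloured circles). *ndhF* and *ndhG* fall on both sides of 0, *ndhD* stays between -0.354 and -0.244, and *ndhK* between 0.0939 and 0.320.

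Among 36 nuclear genes of the NDH complex, listed as subunits, assembly factors and editing or expression factors of *ndh* transcripts, 9 had a named probe set. Of these, 4 were called lower and 0 higher, where 8.17% of all features were lower and 7.42% higher, and 8 had both *aln-1* arrays below both WT arrays, as did 41.4% of all features. The median difference was -0.230. *NdhL*, which encodes a membrane subunit of the complex, had scores of 1.01 and 0.846 in *aln-1* against 1.36 and 1.37 in WT, and fell by 0.437 (standard error 0.0667, adjusted p = 0.0191 from limma). *NdhN* and *NdhS*, which encode subunits of the stromal side with NdhS at the ferredoxin-binding site, had differences of -0.328 (adjusted p = 0.0747) and -0.250 (adjusted p = 0.112). Their *aln-1* arrays were far apart, at 1.06 and 0.807 for *NdhN* and at 1.32 and 1.07 for *NdhS*, with replicate 1 the higher as on most members.

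The other 3 calls were for pentatricopeptide repeat proteins that edit chloroplast transcripts. *CRR22* and *CRR28*, each needed for editing of *ndhB* and *ndhD* sites, had differences of -0.230 (adjusted p = 0.0343) and -0.219 (adjusted p = 0.0473). *OTP85*, needed for a site in *ndhD*, had low scores of -0.344 and -0.292 in *aln-1* against -0.0817 and -0.113 in WT, a difference of -0.221 (adjusted p = 0.0373). The calls of *CRR28* and *OTP85* were lost with a replicate block (adjusted p = 0.0641 and 0.0528) and with any 1 array left out (0.0789 to 0.243 and 0.0653 to 0.209). That of *CRR28* was also lost with centring on array medians (0.0577), and a filter on low values removed *OTP85* and *CRR22* before the test. *CRR21*, which also acts on *ndhD*, had scores of 0.0815 and -0.151 in *aln-1* against 0.283 and 0.300 in WT, a difference of -0.326 that did not pass (adjusted p = 0.0598). *OTP84*, an editing factor of *ndhB* and *ndhF* sites, had a difference of -0.189 (adjusted p = 0.0521). AT2G04039, for which the gene table gives no symbol, is listed as the subunit NDHV. It was the only listed gene with a positive difference, 0.0448 (adjusted p = 0.644 from limma), and its arrays overlapped. The array probes do not report editing, so these values say nothing of the edited share of *ndhD*. Leaving out either WT array lost every call in this list, together with that of *ALN* and most calls over all features. Without *aln-1* replicate 2, *NdhL* alone of the listed genes was called. Without *aln-1* replicate 1, *NdhL*, *CRR22*, *NdhN*, *NdhS* and *CRR21* were. Centred on the other chloroplast genes, *NdhL* alone was called.

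**Figure D5:**
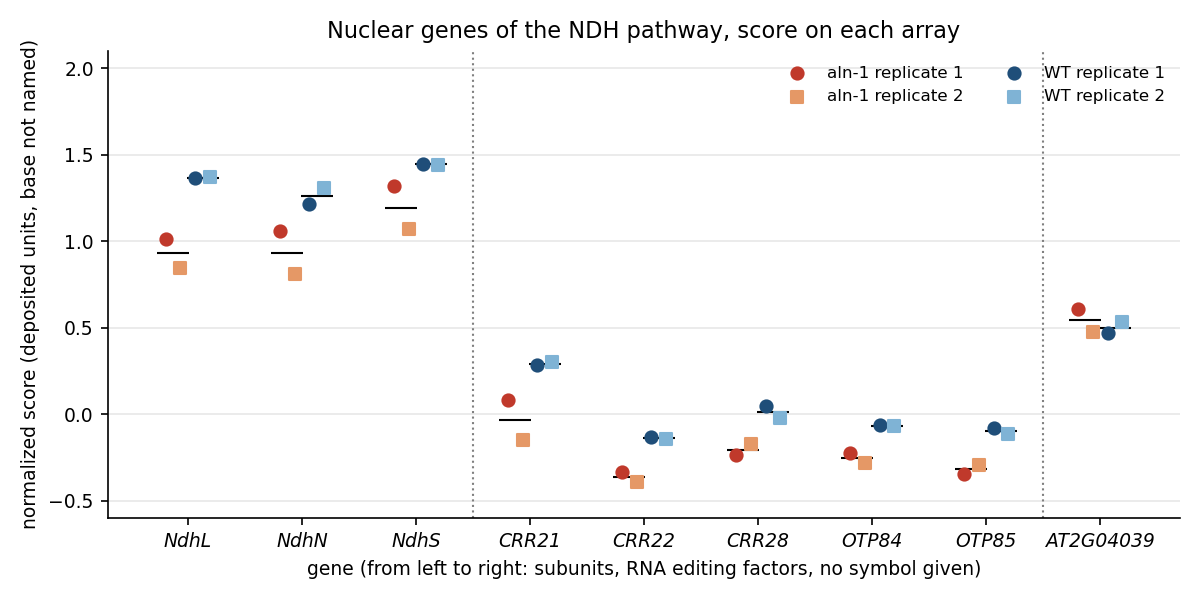
Normalized score (deposited units) of the 9 measured nuclear genes of the NDH list on each array, with short black lines at the genotype means. Dotted lines separate subunits with a symbol, RNA editing factors and AT2G04039, which has no symbol but is listed as the subunit NDHV. Both *aln-1* arrays lie below both WT arrays on 8 of the 9 genes, and AT2G04039 is the exception.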

How the data were processed

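Per the labels and methods, the authors deposited normalized scores for every probe set on each of the 4 ATH1 arrays, after fitting a three-parameter lognormal distribution to earlier raw data (SuperNORM). For background correction, probe summary and log base, nothing is given in the sources. The authors' ANOVA p-values for group and interaction in the same table were not used. A copy of the scores in the series' value matrix differed by at most 4.6e-08. Left out were 64 control probe sets and 842 others that hold no values. The platform's annotation lists a single gene for 13513 probe sets, several for 503 and none for 8730, and 13436 of the former were found in the TAIR10.1 gene table, which also gave the gene order. For genes with more than 1 probe set, that with the highest mean was taken, which left 12719 genes and 9035 other probe sets, all tested.

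The genotype effect was estimated with limma 3.58.1 (lmFit, then eBayes) under R 4.3.3 from all 4 arrays, with no other term, and p-values were adjusted by Benjamini-Hochberg over 21754 features. An adjusted p under 0.05 was a call, and the prior degrees of freedom were 3.11. The script was tested on simulated data. Named are all members, *ALN*, protein-coding neighbours with a probe set, and the calls of the nuclear list, whose uncalled members were added after their values were seen. Members and lists were chosen with earlier results of these data known. The alternatives were a replicate block, quantile normalization, centring on all features or on the other chloroplast genes, a filter on low values, a variance trend, the mean of probe sets, leaving out probe set classes that detect several transcripts, and leaving out each array.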

Additional observations from a re-analysis of the deposited data

How the results depend on the processing

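On the deposited scores *ndhD* was the sole member called, and it was also the sole call with a replicate block (difference -0.299, adjusted p = 0.0222), quantile normalization, centring on array medians, the filter on low values, a variance trend, the mean of probe sets, and without probe sets that can detect several transcripts. The replicate numbers share no stated origin, and the deviations of same-numbered arrays had a correlation of 0.0413 across features. The block gave 1918 features higher and 1854 lower, against 1615 and 1778 without it, and 3 in place of 4 nuclear genes, with *CRR28* (adjusted p = 0.0641) and *OTP85* (0.0528) lost and *CRR21* (0.0413) gained. Centred on the other chloroplast genes, 2 members were called higher and 0 lower, with a median of 0.0362, and the signs of *ndhC* (0.0682), *ndhF* (0.130), *ndhG* (0.112) and *ndhI* (0.00417) reversed. In this scaling 4 other chloroplast genes were higher and 7 lower, 1 nuclear NDH gene was lower, and 4435 and 700 of all features were higher and lower. *ndhF* was also reversed by quantile normalization (0.0137) and centring on array medians (0.00172). Other chloroplast genes called higher, 0 on the deposited scores, numbered 1 with quantile normalization, 3 with centring on array medians, 3 with the filter and 1 with a variance trend. The filter left 2 nuclear genes called lower of the 6 still tested.

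Each fit without an array leaves a genotype with a lone array, assumed to vary like the other genotype. Over these 4 fits, members called higher ranged from 0 to 1 and lower from 0 to 2. Other chloroplast genes called lower ranged from 1 to 13, nuclear genes from 0 to 5, and all features from 71 to 2114 higher and from 61 to 2372 lower. *ndhF* ranged from -0.107 to 0.0741, *ndhG* from -0.159 to 0.0903 and *ALN* from -0.463 to -0.388. The adjusted p of *ndhD* ranged from 0.0215 to 0.187 over all 12 alternatives. The causes were not tested.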
